A study of Drosophila melanogaster with 4 samples.

Results

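The 798 peaks of the third chromosome heterochromatin are those that the authors' peak list places on the sequences 3LHet (403 peaks) and 3RHet (395 peaks), out of 3280 peaks on 12 sequences. They were chosen by sequence name alone. The names belong to release 5 of the Drosophila melanogaster genome, in which heterochromatin of the left (3L) and right (3R) arm that was assembled apart from the arm sequences carries the ending Het. The list came from chromatin immunoprecipitation and sequencing of brains of L3 larvae, the last larval stage, of the knock-in line ato:GFP, kept at 25 °C and untreated. In that line the transcription factor Atonal is fused to GFP, so that an antibody against GFP precipitates it with its DNA. The labels give 400 brains, of which 10% of the sonicated volume served as input. They name 2 immunoprecipitated and 2 input libraries, all of the same genotype, so that no group of untagged animals is among them. Each kind has replicates 1 and 2, and the labels do not say whether these came from separate dissections.

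Atonal is a proneural factor of the basic helix-loop-helix class. It forms dimers with Daughterless, binds short DNA motifs called E-boxes, and in the larval brain it is known from the proliferating optic lobe and from the dorsal cluster neurons. Heterochromatin near the centromere is compact and consists largely of transposon remnants and other repeats. It carries methylated histone H3 lysine 9 and the protein HP1, and in the fly it also holds some active genes. Short reads from repeats can align at more than 1 place, so the position of a peak there depends on how such reads were placed.

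The list gives 1 position and 1 whole-number score for each peak and no value for a single library. Neither a spread between replicates nor a read depth can be given, and no source used here states the scale of the score. The score is the authors' own and is used below only to rank and sort peaks within the list. Intervals and p-values cover the peaks of this list and treat them as independent, which clustered peaks are not. Release 5 sequence and annotation were not used here, so no gene, repeat or motif was assigned to a peak.

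On 3LHet and 3RHet the peaks were almost equally dense. The 403 peaks of 3LHet lay on 2.55 Mb and the 395 of 3RHet on 2.49 Mb, counted from the start of each sequence to the end of its last peak. This gave 158.1 and 158.4 peaks per Mb, which is a ratio of 0.998 (95% interval 0.866 to 1.15; exact binomial test, two-sided, adjusted p = 1 over 13 tests). A difference within that interval cannot be told from none in this list. Peaks covered 52.9 kb of 3LHet (2.07% of its length) and 49.5 kb of 3RHet (1.98%), so that nearly all of both sequences lay outside peaks.

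Peaks reached close to the start of 3LHet, where the first began at position 76, and the last ended at 2548917. On 3RHet the first began at 12512 and the last ended at 2493117. The last 100 kb of 3RHet up to that end held 4 peaks and the last 100 kb of 3LHet 18, while the first 100 kb held 13 and 18. Positions below the midpoint held 54.1% of the peaks on 3LHet (95% Wilson interval 49.2 to 58.9%) and 50.6% on 3RHet (45.7 to 55.5%). An even split lies within both intervals, so a lean towards either end was neither shown nor excluded. Split into 5 equal parts, 3LHet had most peaks in the second part (109 peaks, 27.0%) and 3RHet in the third (109 peaks, 27.6%). The outer parts were the poorest on both sequences, with 68 and 67 peaks on 3LHet and 66 and 66 on 3RHet.

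**Figure D1:**
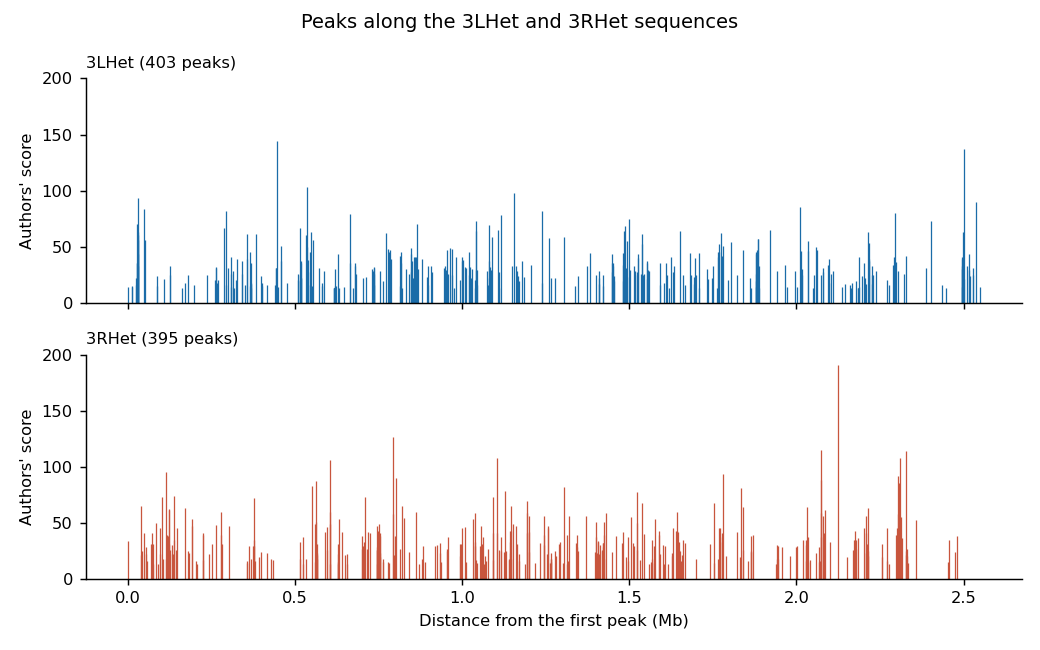
Each vertical line is 1 peak, placed by its distance from the first peak of its sequence (Mb) and as high as the authors' score (no unit), for 3LHet above and 3RHet below. Between the first and the last peak the lines are broken by stretches without a peak of up to 60.4 kb on 3LHet and 94.1 kb on 3RHet. The tallest lines are 144 and 191.

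At a finer scale the density was uneven. Over the 25 complete windows of 100 kb on 3LHet the count had a mean of 15.7 peaks (SD 7.64 over windows) and ran from 4 to 31. Over the 24 windows of 3RHet the mean was 16.3 (SD 6.40) and the range 5 to 27. Complete windows leave out the ends beyond 2500000 on 3LHet and beyond 2400000 on 3RHet. The end left out on 3RHet held its last 4 peaks and most of its longest gap. The variance was 3.71 times the mean on 3LHet and 2.52 times on 3RHet. Which of the 2 was the more uneven depended on the windows: shifted by 50 kb they gave 3.22 and 3.56, and windows of 50 kb gave 3.22 and 3.39. With 1 peak kept per run of close peaks the values were 1.45 and 1.24.

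The fullest window of 3LHet, from 800001 to 900000, held 31 peaks with a median score of 30, and 22 of them had a neighbour less than 1 kb away. The emptiest of 3LHet, from 2300001 to 2400000, held 4 peaks, none of them with a close neighbour. On 3RHet the fullest window, from 1400001 to 1500000, held 27 peaks with a median score of 28, and the emptiest, from 400001 to 500000, held 5. Crowded windows did not hold higher scores: Spearman's rho between the count and the median score was -0.02 over the 25 windows of 3LHet and 0.082 over the 24 of 3RHet. These values describe windows of the same libraries and carry no test.

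**Figure D2:**
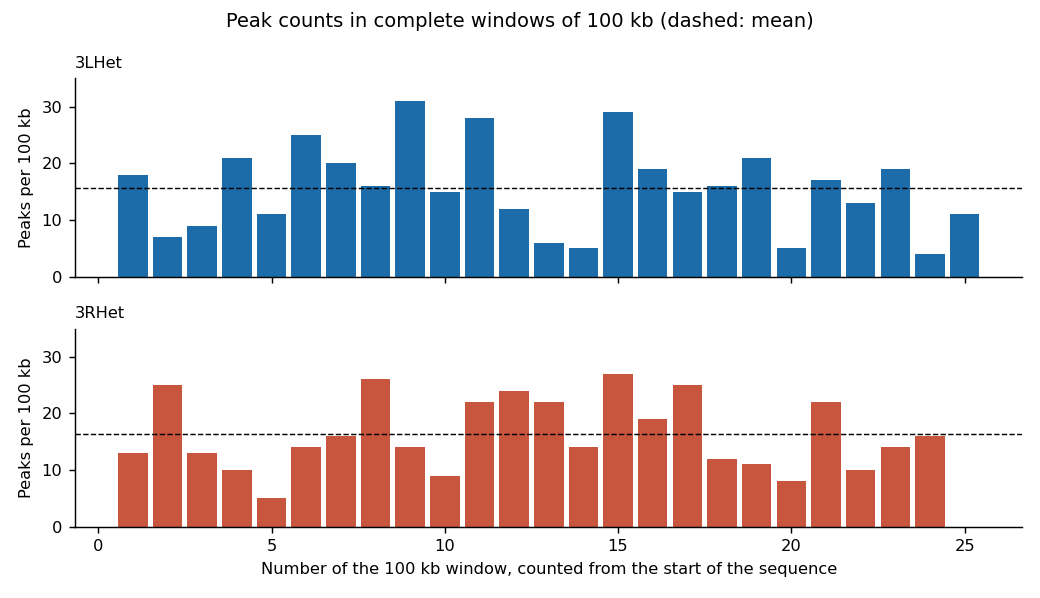
Bars give the number of peaks in each complete window of 100 kb, numbered from the start of the sequence, for 3LHet (25 windows) above and 3RHet (24 windows) below, with the mean as a dashed line (15.7 and 16.3 peaks). Counts range from 4 to 31 on 3LHet and from 5 to 27 on 3RHet, and full windows stand beside poor ones.

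The gaps between neighbouring peaks had almost the same distribution on both sequences. The median gap was 2368 bp on 3LHet (quartiles 659.2 and 7975 bp) and 2524 bp on 3RHet (650.5 and 7512 bp). The shortest gaps were 76 and 81 bp, so no peaks overlapped or touched. Gaps under 1 kb made up 135 of 402 on 3LHet (33.6%) and 135 of 394 on 3RHet (34.3%). At the other end, the 81 gaps of 10 kb or more on 3LHet (20.1% of its gaps) took up 66.0% of its length, and the 73 on 3RHet (18.5%) took up 63.4%. Most of the length of both sequences thus lay in these longer gaps. On the second chromosome sequence 2RHet, gaps of 10 kb or more made up 23.9% of the gaps and took up 72.6% of the length. The shares that randomly placed peaks would give were not computed.

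The longest stretches without a peak were longer on 3RHet. There they measured 94.1 kb (positions 2371255 to 2465402), 81.0 kb (444874 to 525842) and 70.2 kb (1882239 to 1952442). On 3LHet the 3 longest measured 60.4 kb (2326686 to 2387111), 46.7 kb (2447363 to 2494084) and 40.8 kb (196752 to 237588). Each of the 3 on 3RHet exceeded the longest on 3LHet. Whether reads can be aligned in these stretches was not tested.

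Of the peaks on 3LHet, 211 of 403 (52.4%, 95% Wilson interval 47.5 to 57.2%) had a neighbour less than 1 kb away. On 3RHet 220 of 395 did (55.7%, 50.8 to 60.5%), and in the whole list 42.2% did. The difference between the sequences was -3.34 percentage points (interval -10.2 to 3.56; Fisher's exact test, two-sided, adjusted p = 0.614). Chains of such neighbours, called runs here, numbered 76 on 3LHet and 85 on 3RHet. Most were pairs, with 52 pairs and 13 triplets on 3LHet and 60 and 12 on 3RHet. The other peaks, 192 on 3LHet and 175 on 3RHet, stood alone.

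Runs of 6 or more peaks numbered 6 on 3LHet and 3 on 3RHet. The longest of 3LHet lay between 615267 and 620492, where 10 peaks covered 63.5% of 5.23 kb. In order along the sequence these peaks were 539, 400, 469, 250, 444, 103, 85, 624, 80 and 327 bp wide. Their scores were 13 for each but the sixth (14), the seventh (15) and the ninth (30), and 13 is the lowest score of the list. So the 7 peaks of 250 bp or wider all had the lowest score, the 3 narrower ones scored above it, and the gaps between them ran from 101 to 508 bp. It was not tested if these calls mark separate places or 1 continuous broad stretch.

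The run of 10 peaks on 3RHet, between 1431284 and 1435825, looked different. Its peaks were 307, 156, 103, 183, 86, 110, 87, 89, 76 and 91 bp wide, and their scores were 25, 26, 28, 32, 32, 20, 13, 13, 18 and 39. They covered 28.4% of 4.54 kb. Only 2 of them had the lowest score, against 7 of 10 in the run on 3LHet, and the median score was 25.5 against 13.

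On 3LHet there were 9 peaks between 1079882 and 1084734 (median score 22), 8 between 1877599 and 1881825 (23.5) and 7 between 513598 and 517807 (25). A further 6 lay between 535367 and 538261 (28) and 6 between 1487259 and 1490478 (29.5). On 3RHet 7 lay between 1654941 and 1658621 (23) and 6 between 756475 and 759555 (27). In these runs the peaks covered 22.0 to 32.5% of the stretch on 3LHet and 33.0 and 34.0% on 3RHet, all below the 63.5% of the longest run of 3LHet.

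Widths did not set the 2 sequences apart. The median was 112 bp on 3LHet (quartiles 87 and 149 bp) and 110 bp on 3RHet (85 and 146.5 bp). The narrowest peaks were 71 bp wide, and 13 peaks on each sequence had that width. Of the 3LHet peaks 205 (50.9%, Wilson interval 46.0 to 55.7%) were wider than 110 bp, and of the 3RHet peaks 196 (49.6%, 44.7 to 54.5%), beside 49.8% in the whole list. The difference was 1.25 percentage points (interval -5.66 to 8.14; Fisher's exact test, two-sided, adjusted p = 0.918).

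The sequences differed in their widest peaks. On 3LHet the widest measured 624, 539, 469 and 444 bp and all lay in the run between 615267 and 620492, each with a score of 13. The fifth, of 434 bp (968799 to 969232), had a score of 48. On 3RHet the widest measured 404 bp (758646 to 759049, score 26) and 355 bp (761761 to 762115, score 15), followed by 316 bp (125662 to 125977, score 95), 314 bp (2039944 to 2040257, score 30) and 313 bp (2045706 to 2046018, score 15). Without the longest run of each sequence the widest peaks were 434 bp on 3LHet and 404 bp on 3RHet. That run held 6 of the peaks wider than 300 bp on 3LHet, and the rest of the sequence held 7.

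**Figure D3:**
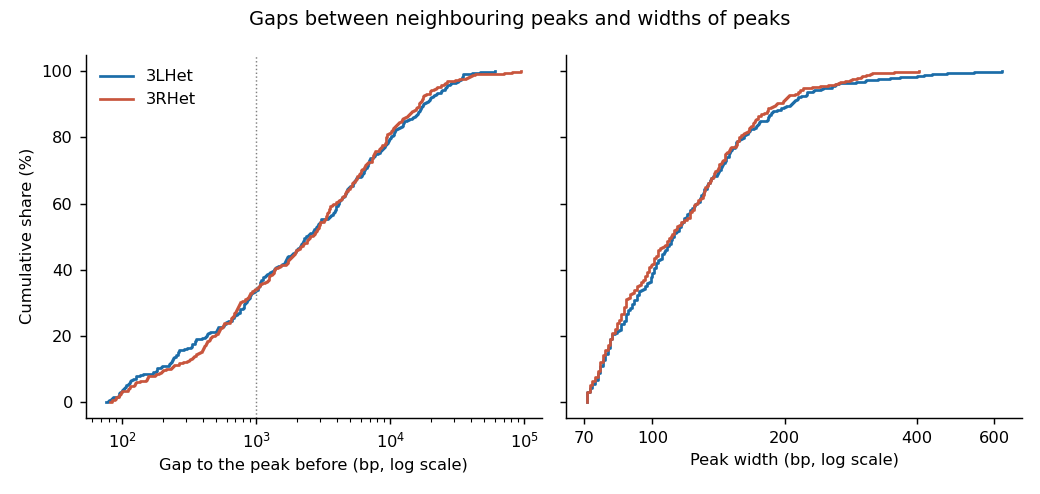
Cumulative share (%) of the gaps to the peak before (left, bp, log axis, dotted line at 1 kb) and of peak widths (right, bp, log axis) on 3LHet and 3RHet. The curves of the 2 sequences lie close together through the medians (gaps 2368 and 2524 bp, widths 112 and 110 bp) and part at the upper end, where gaps reach 94.1 kb on 3RHet and widths reach 624 bp on 3LHet.

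Scores were close as well. The median was 28 on 3LHet (quartiles 19 and 40.5) and 29 on 3RHet (20 and 42), and the ranges were 13 to 144 and 13 to 191. A score above 25, the median of the whole list, was carried by 231 of the 3LHet peaks (57.3%, Wilson interval 52.4 to 62.1%) and 237 of the 3RHet peaks (60.0%, 55.1 to 64.7%), beside 47.6% in the whole list. The difference of -2.68 percentage points (interval -9.46 to 4.14) did not pass Fisher's exact test (two-sided, adjusted p = 0.614). The lowest score, 13, belonged to 30 peaks of 3LHet (7.44%, 5.26 to 10.4%) and 23 of 3RHet (5.82%, 3.91 to 8.59%), beside 8.78% in the whole list. That difference of 1.62 points (interval -1.90 to 5.17) did not pass either (Fisher's exact test, adjusted p = 0.614), and without the longest run of each sequence it was 0.398 points.

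Towards high scores 3RHet held somewhat more peaks. Scores of 37 or more were found for 143 of its peaks (36.2%) and for 122 of 3LHet (30.3%), beside 24.5% in the whole list. The difference of -5.93 points between the sequences did not pass Fisher's exact test (adjusted p = 0.218). This threshold was an alternative to 25, and its p-value took the place of that one in the adjustment. Scores above 80 were carried by 17 peaks of 3RHet (4.3%) and 10 of 3LHet (2.48%), beside 2.68% in the whole list. Scores above 100 were carried by 7 peaks of 3RHet (1.77%) and 3 of 3LHet (0.744%), beside 1.07% in the whole list. These last counts are given as a description.

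The 10 highest scores of 3LHet ran from 82 to 144. First came a peak of 71 bp, the smallest width in the list, at 446690 to 446760 with a score of 144, and the nearest peak to it, 2893 bp away, scored 14. The second, at 2501020 to 2501184, had a score of 137 and a neighbour of score 21 at 112 bp. The third, at 535700 to 535778 with a score of 103, lay in a run of 6, at 97 bp from a peak of 341 bp with a score of 13.

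The other high-scoring peaks of 3LHet were at 1155180 to 1155255 (score 98), 30664 to 30756 (93), 2538209 to 2538285 (90), 2011906 to 2012091 (85) and 46935 to 47030 (84). The nearest peaks to those of 93 and 84 scored 60 and 56. A score of 82 was shared by those at 291887 to 292038 and 1237945 to 1238106. Of the 10, 6 were at most 100 bp wide, beside 39.2% of all 3LHet peaks, and 7 lay below the midpoint of the sequence and 5 had a neighbour within 1 kb.

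On 3RHet the 10 highest scores ran from 92 to 191. The first, 191, belonged to a peak of 81 bp at 2136637 to 2136717 that stood 23876 bp from its nearest neighbour. Behind it came 126 at 806036 to 806129, 115 at 2085965 to 2086036, and 114 at 2341128 to 2341211. The nearest peaks to these last 3 scored 58 at 286 bp, 88 at 393 bp and 21 at 97 bp. A score of 108 was shared by the peaks at 1117067 to 1117205 and 2322696 to 2322887.

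The remaining 4 were at 616158 to 616228 (score 106), 125662 to 125977 (95), 1791670 to 1791846 (93) and 2315131 to 2315203 (92). Again 6 of 10 were at most 100 bp wide, beside 41.8% of all 3RHet peaks, while 4 lay below the midpoint and 7 had a neighbour within 1 kb. The window from 2300001 to 2400000 held 3 of the 10, and its median score of 46.5 over 16 peaks was the highest of the 24 windows on 3RHet. The window was picked out after its values were seen.

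Score changed little with position or crowding. Spearman's rho of score with position was 0.0672 on 3LHet (n = 403 peaks) and 0.0356 on 3RHet (n = 395), and of score with the distance to the nearest peak -0.0461 and -0.0176. Between score and width rho was -0.0392 on 3LHet and -0.139 on 3RHet. All of these are weak, describe peaks of the same libraries and carry no test. In classes of score, the median width on 3RHet was 123 bp at 14 to 18, 123 bp at 19 to 25, 111.5 bp at 26 to 36 and 102 bp at 37 or more, while at 13 it was 99 bp. On 3LHet the same classes had medians of 101, 112, 120 and 109.5 bp, with 139 bp at 13, so there was no steady fall.

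Peaks in long runs scored lower on 3LHet, and 1 run made most of that difference. The median score was 28 for the 192 single peaks, 31 for the 143 in pairs and triplets and 22 for the 68 in runs of 4 or more, of which 16.2% had the lowest score. Without the run between 615267 and 620492 the last group held 58 peaks with a median of 26.5, and 6.90% had the lowest score. On 3RHet the medians were 30 for single peaks (n = 175), 29 in pairs and triplets (n = 156) and 27 in runs of 4 or more (n = 64). Median widths were 110 bp for single peaks and 117.5 bp in runs of 4 or more on 3LHet, and 103 and 113 bp on 3RHet. These groups were compared without a test.

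Set beside the other 4 Het sequences (2LHet, 2RHet, XHet and YHet, 553 peaks), the third chromosome heterochromatin gave no difference that passed in the 4 tested shares. Density was not tested for this pair, at 158.3 against 131.7 peaks per Mb. The longest run held 10 peaks against 22, and the widest peak measured 624 against 2142 bp. On 2RHet alone (428 of the 553 peaks) the longest run held 10 peaks and the widest peak measured 404 bp. The larger values of the 4 sequences came from 2LHet, XHet and YHet (125 peaks). Scores above 25 made up 58.6% against 53.2%, a difference of 5.48 points (interval 0.106 to 10.8; Fisher's exact test, two-sided, adjusted p = 0.22). Unlike the p-value, the interval is not adjusted for the number of tests. That 53.2% combined 54.9% on 2RHet (235 of 428 peaks) with 47.2% on 2LHet, XHet and YHet (59 of 125 peaks). The lowest score made up 6.64% against 9.04% (adjusted p = 0.306, Fisher's exact test). That 9.04% combined 5.37% on 2RHet (23 of 428 peaks), which lies below the third chromosome value, with 21.6% on 2LHet, XHet and YHet (27 of 125 peaks). Peaks wider than 110 bp made up 50.3% against 52.8%, and peaks with a neighbour within 1 kb 54.0% against 51.9% (Fisher's exact test, adjusted p = 0.614 for each). The intervals of the last pair, -7.94 to 2.86 and -3.29 to 7.51 points, leave room for differences of several points either way.

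Against the arm sequences 3L and 3R (830 peaks), scores and spacing differed and widths did not pass. A score above 25 was more frequent on 3LHet and 3RHet, with 58.6% against 40.5%, a difference of 18.2 points (interval 13.3 to 22.9; Fisher's exact test, two-sided, adjusted p = 1.76e-12). With the centromere end of 3L left out of the arms, as decided after the values were seen, the difference was 20.6 points. Each Het sequence lay above its own arm, with 57.3% on 3LHet against 42.0% on 3L and 60.0% on 3RHet against 38.2% on 3R. The lowest score made up 6.64% and 6.75%, with an interval of the difference from -2.55 to 2.36 points (Fisher's exact test, adjusted p = 1). The highest single scores lay on the arms, 483 on 3L and 530 on 3R, beside 144 on 3LHet and 191 on 3RHet.

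Widths over 110 bp made up 50.3% in the heterochromatin and 45.9% on the arms, a difference of 4.35 points (interval -0.506 to 9.17; Fisher's exact test, adjusted p = 0.268). When the 2 Mb at the centromere end of 3L were left out of the arms, as decided once the values were known, it was 8.75 points and passed (Fisher's exact test, adjusted p = 0.006). That adjustment did not count the other alternatives tried. With the whole arms, the share was 50.9% on 3LHet against 49.9% on 3L, and 49.6% on 3RHet against 40% on 3R. Neighbours within 1 kb were found for 54.0% of the peaks in the heterochromatin and 28.2% on the arms, 25.8 points more (interval 21.1 to 30.3; Fisher's exact test, adjusted p = 3.49e-25). That share rises with density by construction, and the arms held 15.9 peaks per Mb against 158.3.

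The 2 Mb at the centromere end of 3L, with 230 peaks at 115 per Mb, came nearest in density among the stretches of these arms described here. There 52.2% of the peaks had a neighbour within 1 kb, which differed from the 54.0% of the heterochromatin by 1.84 points (interval -5.41 to 9.13). A score above 25 was carried by 47.0% of them, 11.7 points fewer than in the heterochromatin (interval of the difference 4.38 to 18.9). Wider peaks made up 57.4% there and 50.3% in the heterochromatin (interval of the difference -14.3 to 0.188). This comparison was added after the data were seen and is given by its intervals alone.

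**Figure D4:**
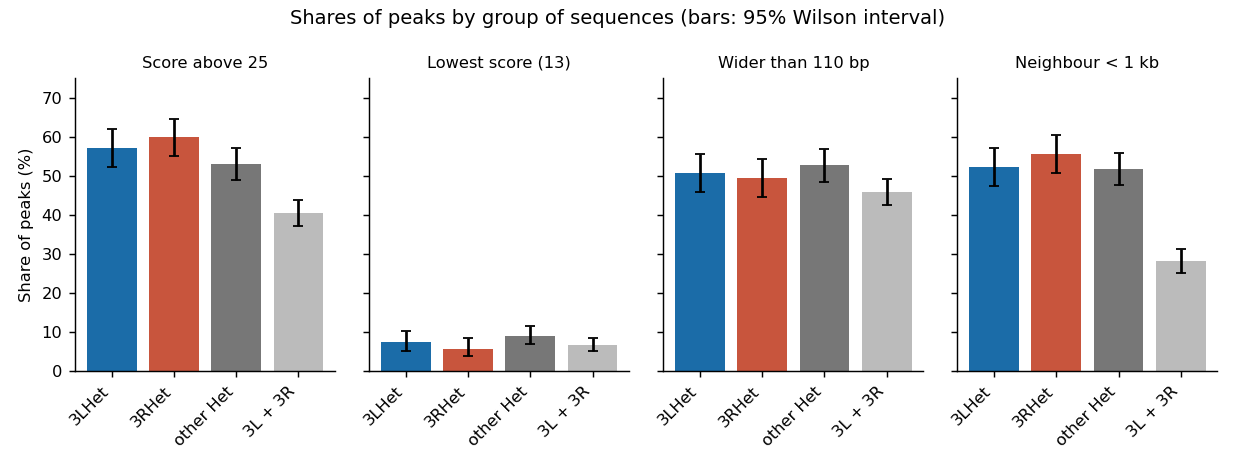
Bars give the share of peaks (%) with a score above 25, with the lowest score of 13, wider than 110 bp, and with a neighbour less than 1 kb away, on 3LHet, 3RHet, the other 4 Het sequences and the arms 3L and 3R together. Error bars are 95% Wilson intervals (counting error). 3LHet and 3RHet lie side by side in all panels, and the arms lie lower in the score above 25 (40.5%) and in close neighbours (28.2%).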

How the data were processed

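Chromatin from L3 brains of the ato:GFP line was precipitated with anti-GFP in 2 libraries, with 2 input libraries. The submitters' processing notes name Bowtie2 2.2.1 as the aligner. No source used here states how peaks were called, at which threshold, how reads with several alignments were handled, or if replicates were pooled. The authors deposited 1 list without a header, with a whole-number score of unknown scale for each peak. Depth is unknown.

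Starts were converted to positions counted from 1. Peaks on 3LHet and 3RHet were taken by name. Length was the end of the last peak. Shares have 95% Wilson intervals, and differences have intervals built from these by Newcombe's method. They cover counting error only. The 13 main tests (1 exact binomial, the others Fisher's exact, two-sided) were adjusted together by the Benjamini-Hochberg method at 0.05, with scipy 1.17.1 in Python 3.11.15. For each alternative setting, its p-value replaced the matching main one and the 13 were adjusted again. The number of alternatives tried was therefore not counted in any adjusted p-value. Fisher's test and its intervals were checked on simulated counts of independent peaks, so the check does not cover clustered peaks such as these. The text names, on each sequence, the 10 highest-scoring and 5 widest peaks, runs of 6 or more peaks less than 1 kb apart, the 3 longest gaps, and the fullest and emptiest windows of 100 kb. The peaks, thresholds and lists were chosen with earlier results of these data known. Genes were not named, since the only gene table used here follows release 6.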

Additional observations from a re-analysis of the deposited data

How the results depend on the processing

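Over 17 results and 91 alternatives, 78 kept their direction and their side of the threshold or moved little. The higher share of scores above 25 against the arms 3L and 3R passed under each alternative run, between 7.88 points (threshold 18) and 25.5 points (1 peak per run), the latter raised by keeping the highest score of each run. The higher share of close neighbours against these arms passed under each alternative run, between 14.6 and 38.0 points. That share rises with density by construction, and none of the alternatives matched the density of the arms to that of the heterochromatin. Against the centromere end of 3L, nearest in density among the stretches described, the difference was 1.84 points (interval -5.41 to 9.13). The share wider than 110 bp against the arms passed only without the 2 Mb at the centromere end of 3L (8.75 points), an alternative chosen after the data were seen. Its adjustment did not count the other alternatives. No comparison of 3LHet with 3RHet passed under any alternative, and the cause of the turns that follow was not tested.

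Turns of direction occurred only among differences that did not pass before or after. The density ratio of 3LHet to 3RHet became 1.01 with 1 peak per run and 1.08 with peaks within 10 kb counted once. The difference in close neighbours between them became 3.55 points at 500 bp. Against the other Het sequences it became -1.54 points at 2 kb and -0.703 at 500 bp, and the difference in width became 2.33 points among scores above 25 and 0.0523 at the higher width threshold. Without the first and last 100 kb of each sequence, the difference in the lowest score became 1.55 points against the other Het sequences. There the cut left 442 of their 553 peaks. It took a larger part of 2LHet, XHet and YHet (0.919 Mb together) than of 2RHet (3.28 Mb). Against the arms the same cut gave 0.213 points. With only the centromere end of 3L left out of the arms, the difference was 0.642 points. The ratio of variance to mean over windows fell to 1.45 on 3LHet and 1.24 on 3RHet with 1 peak per run, which removes close peaks by construction.

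No paired analysis was possible because each peak has 1 score for the series and none per library. Leaving out a replicate was not run for the same reason.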

Other observations

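Neighbouring peaks of the third chromosome heterochromatin had scores that were nearly unrelated. Spearman's rho between the score of a peak and that of the next was 0.0831 on 3LHet (n = 402 pairs) and 0.0778 on 3RHet (n = 394 pairs), and for widths it was 0.0204 and -0.0181. Wider peaks lay slightly nearer to another peak, with rho between width and distance to the nearest peak of -0.143 on 3LHet and -0.0787 on 3RHet. These values are descriptions over peaks of the same libraries, with no test.

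Gaps under 100 bp, only a little longer than the narrowest peaks of 71 bp, were found 14 times on 3LHet (3.48% of its gaps). They were found 13 times on 3RHet (3.30%) and 11 times on 2RHet (2.58%), beside 9 times on 3L (1.82%) and 5 times on 3R (1.5%). The share of short gaps rises with density by construction. The arms 3L and 3R held 15.9 peaks per Mb, 2RHet 130.5, and 3LHet and 3RHet together 158.3. Whether the smallest gap reflects a setting of the peak caller was not tested.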
